A study of Mus musculus with 6 samples.

Results

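Cathepsins are the proteases of the lysosome and of lysosome-related granules, and cystatins are inhibitors that bind them. The set described here holds 10 genes of the 32285 listed for every library: the cathepsins Ctsb, Ctsc, Ctsd, Ctsh, Ctsl, Ctss, Ctsw and Ctsz and the cystatins Cst3 and Cstb. They were chosen by gene symbol, and each symbol matched 1 row.

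The cells came from tumours at 2 sites. For the BrM group a brain-metastatic breast cancer line had been injected into the brain, and for the MFP group it had been injected into the mammary fat pad, so the brain tumours did not arise by spread from the breast. All mice were female C57BL/6J of 10 to 12 weeks, and the labels give no drug, deletion or transgene for either group. Living nucleated CD45+ cells, that is leukocytes, were sorted from digested tumours and profiled with 10x Genomics 3′ chemistry, in 3 BrM and 3 MFP libraries. Whether each library came from its own mouse is not stated in the labels. The p-values therefore measure the spread between these libraries, and that spread may be technical.

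Cathepsins are made as inactive precursors, sorted to the lysosome largely by mannose 6-phosphate receptors, and activated there at acid pH. Most belong to the papain family of cysteine proteases, which cystatins inhibit, whereas cathepsin D is an aspartic protease. In antigen-presenting cells they degrade endocytosed protein and the invariant chain of MHC class II, and in cytotoxic cells cathepsin C activates the granzymes. Microglia, the resident macrophages of the brain, are known for strong lysosomal gene expression.

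Raw UMIs (counted RNA molecules) were summed per library over the cells of 1 class, and a level is given as CPM, the counts per 1e6 UMIs of that sum. Classes were gated by the number of marker genes detected in a cell, with no cathepsin, cystatin or other lysosomal enzyme among the markers. A library entered a class with at least 20 cells. After filters 43608 cells remained, 6159 to 7892 per library. BrM 1, MFP 1 and MFP 2 stood apart: they held 25, 36 and 17 macrophage-gated cells, against 1133 in BrM 2, 1170 in BrM 3 and 1479 in MFP 3. They also had the lower UMI totals, 50692794 to 54976396 against 60699618 to 70944735. Microglia-gated cells numbered 2, 430 and 294 in BrM 1, 2 and 3 and 0, 0 and 9 in MFP 1, 2 and 3. Their 8 markers summed to 3246 to 3855 CPM in BrM 2 and BrM 3, against 219.8 to 274 CPM in macrophage-gated cells. Pairs of libraries shared 10 to 39 cell barcodes.

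RefSeq's promoter table (GRCm38.p6) held 6 of the 10 genes: Cst3, Ctsc, Ctsd, Ctsl, Ctss and Ctsz. The 4 promoters printed are those that held a motif looked for. They belong to Ctsd and Ctsl, which set microglia most apart from macrophages, to Ctsc, highest in macrophages, and to Ctss, also highest in microglia. Each runs 5′ to 3′ on the gene's strand from 250 bases before the RefSeq start through the first 10 bases of the transcript. Capitals mark CACGTG, the E-box bound among others by TFEB, a factor of lysosomal genes, or ACTTCCTC, the reverse complement of GAGGAAGT, a form of the site of PU.1, a factor of myeloid cells. The windows are chr7:142387818-142388077 and chr13:64370511-64370770 on the minus strand and chr7:88277835-88278094 and chr3:95526536-95526795 on the plus strand.
Ctsd: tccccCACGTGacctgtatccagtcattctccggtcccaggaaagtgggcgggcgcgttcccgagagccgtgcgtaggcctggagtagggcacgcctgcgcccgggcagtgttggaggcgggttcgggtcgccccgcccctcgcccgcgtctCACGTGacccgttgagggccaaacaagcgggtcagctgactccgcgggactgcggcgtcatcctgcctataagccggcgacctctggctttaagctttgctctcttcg
Ctsl: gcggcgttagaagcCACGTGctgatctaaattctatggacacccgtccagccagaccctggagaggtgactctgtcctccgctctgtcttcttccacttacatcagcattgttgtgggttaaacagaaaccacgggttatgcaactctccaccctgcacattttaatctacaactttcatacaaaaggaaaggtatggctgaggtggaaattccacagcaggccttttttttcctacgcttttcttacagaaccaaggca
Ctsc: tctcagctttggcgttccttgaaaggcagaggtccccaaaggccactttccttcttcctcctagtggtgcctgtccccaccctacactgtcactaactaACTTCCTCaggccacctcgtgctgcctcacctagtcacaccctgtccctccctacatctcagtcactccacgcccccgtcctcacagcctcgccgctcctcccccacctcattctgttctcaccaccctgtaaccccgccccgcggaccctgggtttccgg
Ctss: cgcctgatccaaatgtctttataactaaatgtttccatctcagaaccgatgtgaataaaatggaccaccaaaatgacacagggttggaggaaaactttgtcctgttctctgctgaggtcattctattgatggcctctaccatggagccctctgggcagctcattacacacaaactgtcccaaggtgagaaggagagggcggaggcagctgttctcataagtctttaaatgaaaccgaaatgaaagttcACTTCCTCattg
Ctsd held the E-box 245 and 98 bases before the start, and Ctsl 236 bases before it. RefSeq's starts lie 211 bases (Ctsd) and 370 bases (Ctsl) inside the GENCODE gene models, so windows at other starts of these genes were not searched. The PU.1 letters lay 151 bases before the start of Ctsc and 2 bases before that of Ctss. Over windows of 300 bases and both strands, CACGTG was in 7.15% and GAGGAAGT in 3.2% of 32851 promoters, and each was in 2 of the 6 genes' windows. A match describes letters in a window, not a bound site.

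Ctsd, the aspartic protease (chr7:142375911-142388038, minus strand; GRCm38, GENCODE), had its highest level in microglia. It stood at 9983 and 8436 CPM in the microglia of BrM 2 and BrM 3, against 644 and 717 CPM in the macrophages of the same libraries. Neutrophils came next, with 1281, 1193 and 998 CPM in BrM 2, BrM 3 and MFP 3, above macrophages in each of the 3. NK cells, at 357 to 484 CPM, lay above monocytes, at 149.6 to 355 CPM, in 6 of 6 libraries. Monocytes (mean 243 CPM) and T cells (mean 239 CPM) did not separate, and the lowest levels were in B cells (26.6 to 107 CPM) and dendritic cells (15.3 to 104 CPM). Ctsd, Ctsl and Ctss each overlap another gene model on their own strand (Gm49369, Gm49230 and Hmgb1-ps5), and the labels and processing notes do not state how reads they share were counted.

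The cysteine cathepsins Ctsl and Ctsb were also highest in microglia. Ctsl (chr13:64359337-64370890, minus strand), an endopeptidase, had 3217 and 2847 CPM in the microglia of BrM 2 and BrM 3. Plasmacytoid dendritic cells, known as producers of type I interferon, were second for Ctsl, at 959.5, 1794 and 1662 CPM in BrM 1, 2 and 3 and 1302 CPM in MFP 3. Their range met neither that of microglia nor that of macrophages (237 to 475 CPM). Ctsb (chr14:63122462-63145923, plus strand), which cuts both within chains and at their C-terminal end, stood at 5806 and 5166 CPM in microglia and at 1989.8 to 2887 CPM in macrophages. For Ctsb the means of plasmacytoid dendritic cells (1257 CPM), monocytes (1251 CPM) and neutrophils (1238 CPM) lay close together with overlapping ranges, and conventional dendritic cells were lower, at 213 to 288 CPM.

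Ctss and Ctsz fell in steps from microglia through macrophages to monocytes. Ctss (chr3:95526786-95556403, plus strand), which completes invariant chain degradation in most antigen-presenting cells, had 7045 and 7186 CPM in microglia, 4507 to 6427 CPM in macrophages and 2112 to 3606 CPM in monocytes, with no overlap between neighbours. Ctsz (chr2:174427493-174439039, minus strand), a carboxypeptidase, had 2587 and 2485 CPM in microglia, 1831 to 2231 CPM in macrophages and 879 to 1147 CPM in monocytes, again without overlap. Among lymphocytes B cells had the most Ctss, 409 to 781 CPM, above T cells (134 to 217 CPM) in 6 of 6 libraries.

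Ctsc and Ctsh were not highest in microglia. Ctsc (chr7:88278085-88310888, plus strand), the dipeptidyl peptidase that activates granule serine proteases, had 1286 to 1621 CPM in macrophages, 1201 and 1235 CPM in microglia and 743 to 1286 CPM in monocytes, and the microglial and monocyte ranges overlapped. In NK cells, whose granzymes it processes, Ctsc stood at 98.5 to 125 CPM, a range that overlapped those of B cells (111 to 181 CPM) and T cells (75.3 to 111 CPM). Ctsh (chr9:90054152-90076089, plus strand), an aminopeptidase, was highest in plasmacytoid dendritic cells at 1241 to 1447 CPM, which overlapped macrophages (1080.5 to 1319 CPM). B cells held 262 to 444 CPM of Ctsh, against 2.27 to 34.3 CPM in NK cells and 2.12 to 21.6 CPM in T cells.

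Ctsw (chr19:5465043-5468507, minus strand), a cathepsin of cytotoxic lymphocytes, was distributed the other way. NK cells had 820.1, 704 and 685 CPM in BrM 1, 2 and 3 and 849, 841 and 697 CPM in MFP 1, 2 and 3. T cells followed with 463, 449 and 413 CPM in BrM and 527, 495 and 514 CPM in MFP, below NK cells in 6 of 6 libraries. Macrophages (3.19 to 14.9 CPM), monocytes (2.00 to 10.3 CPM) and microglia (3.17 and 3.14 CPM) held little of it.

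Of the inhibitors, Cst3 (chr2:148871722-148875692, minus strand), the secreted cystatin C, was highest in dendritic cells, with 9345, 18002 and 14187 CPM in BrM 1, 2 and 3 and 9882 CPM in MFP 3. Its level differed between dendritic subsets. The cDC1 subset, known for cross-presentation, had 20657 and 17794 CPM in BrM 2 and BrM 3 and 20817 CPM in MFP 3. Mature dendritic cells had 19924 and 14600.4 CPM in BrM 2 and BrM 3 and 12856 CPM in MFP 3. The cDC2 subset had 3198, 9436 and 6429 CPM in BrM 1, 2 and 3 and 4215 CPM in MFP 3, below the other conventional subsets in each library that held them. Plasmacytoid dendritic cells were lowest, at 1139 to 2505 CPM, and microglia stood at 6581 and 6091 CPM.

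**Figure D1:**
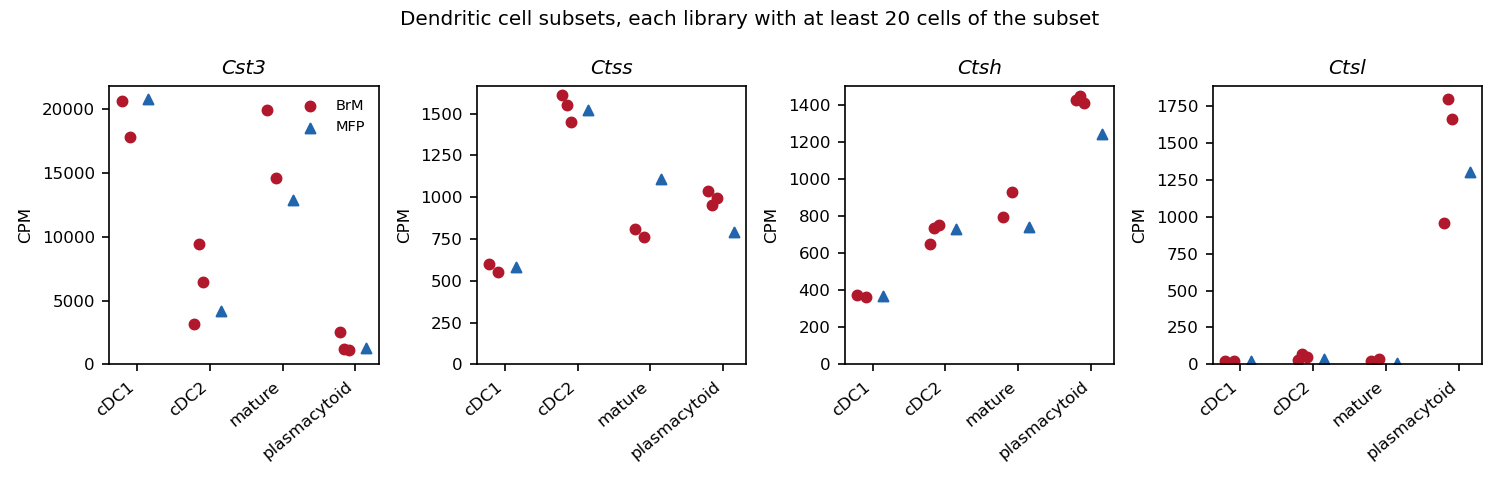
Levels (CPM, vertical axes) of Cst3, Ctss, Ctsh and Ctsl in 4 dendritic cell subsets; red circles are BrM libraries and blue triangles the MFP library with at least 20 cells of the subset. In plasmacytoid dendritic cells Cst3 is at 1139 to 2505 CPM and Ctsl at 959.5 to 1794 CPM, the lowest and the highest of the subsets for these genes.

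Cstb (chr10:78425669-78427622, plus strand), the cytosolic stefin B, was highest in neutrophils, at 1424 and 1533 CPM in BrM 2 and BrM 3 and 2103 CPM in MFP 3. Monocytes (455 to 1095 CPM), macrophages (499 to 782 CPM) and microglia (539 and 623 CPM) overlapped below them. In the libraries that held both classes, microglia and macrophages had 539 and 566 CPM of Cstb in BrM 2 and 623 and 605 CPM in BrM 3.

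**Figure D2:**
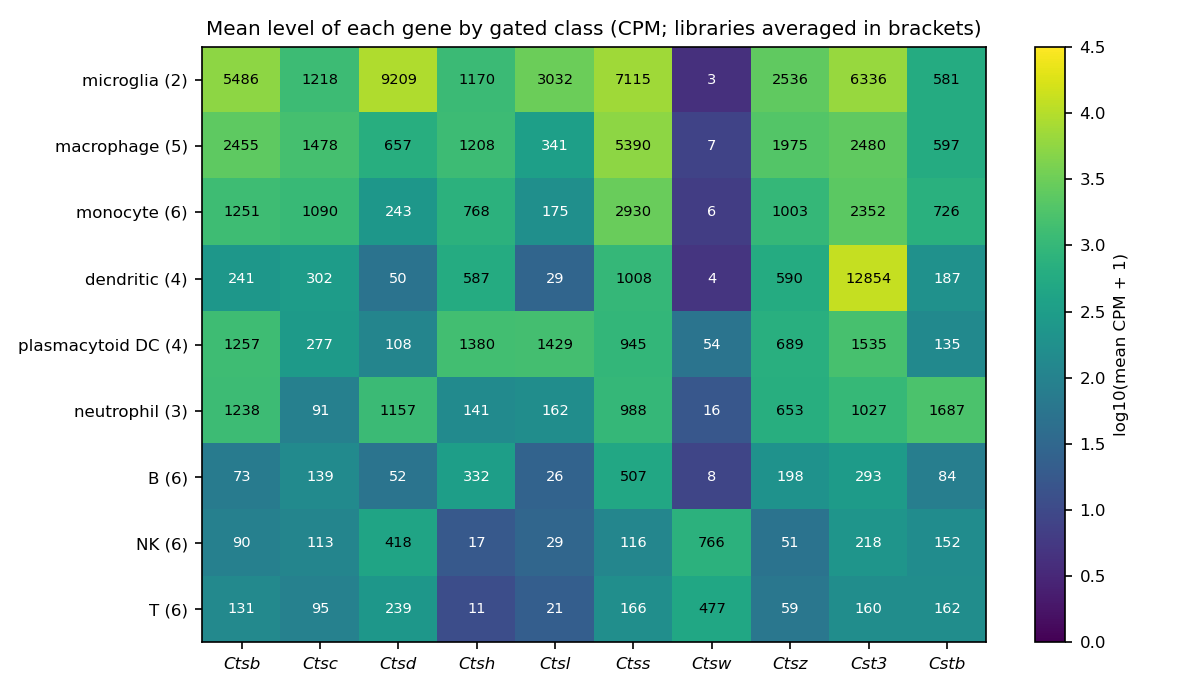
Mean level of each of the 10 genes (columns) in 9 gated classes (rows), in CPM; colour is log10(mean CPM + 1), and the number in brackets counts the libraries averaged. Microglia have the highest mean of 5 genes, Ctsb, Ctsd, Ctsl, Ctss and Ctsz.

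Together the 10 genes held 3.81% and 3.52% of all UMIs of microglia in BrM 2 and BrM 3. The share was 1.52% to 1.8% in macrophages, 0.92% to 1.22% in monocytes, 1.21% to 2.08% in dendritic cells and 0.14% to 0.244% in B, NK and T cells. Over all cells it was 0.215%, 1.45% and 1.28% in BrM 1, 2 and 3 and 0.196%, 0.163% and 1.18% in MFP 1, 2 and 3, low at both sites in the libraries with few macrophages. In such sums over all cells, fewer cells of a type and less RNA per cell cannot be told apart.

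Microglia express macrophage markers too, and Ctsd depends on where the line between both classes is drawn. Cells with macrophage markers were divided by how many of the 8 microglia markers they held, a division made after the levels had been seen and given as a description. In BrM 2, Ctsd stood at 516, 566, 756, 1382 and 2573 CPM in cells with 0, 1, 2, 3 and 4 microglia markers and at 8917 CPM in the 483 cells with 5 to 8. In BrM 3 it stood at 590.5, 663, 825, 1302 and 2521 CPM, then at 7958 CPM in 317 cells. In MFP 3 it stood at 554, 923, 719, 881 and 990.4 CPM, then at 1387 CPM in 70 cells. Cells of the fat pad tumour with 5 or more microglia markers thus did not reach the Ctsd level of brain tumour cells counted the same way.

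Ctsl was also highest with 5 to 8 markers in both BrM libraries, and in MFP 3 it was highest with 1. It had 304 to 580.0 CPM up to 4 markers and 2814 CPM from 5 in BrM 2, 366 to 713 and then 2652 CPM in BrM 3, and 377 to 536 and then 414 CPM in MFP 3. Cst3 reached 6151 and 5815 CPM with 5 to 8 markers in BrM 2 and BrM 3, against 3473 CPM in MFP 3. Ctsh varied less, over 1119.9 to 1359 CPM in BrM 2, 1196 to 1363 CPM in BrM 3 and 949.7 to 1298 CPM in MFP 3. Sparc, 1 of the 8 markers, stood at 936 and 728 CPM in the cells with 5 to 8 markers of BrM 2 and BrM 3, against 8.82 CPM in those of MFP 3. The median UMIs per cell were 8955, 10737, 11768, 12738 and 12408 with 0 to 4 markers and 12658 with 5 to 8 in BrM 2, and 8733, 10051, 10755, 11682 and 11423, then 11575, in BrM 3. They were 7814, 11198, 14208, 17166 and 19019, then 18901, in MFP 3. The medians were thus higher up to 3 markers in the BrM libraries and up to 4 in MFP 3, and were not higher beyond that. The part of UMIs per cell in the differences between these groups of cells was not tested.

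**Figure D3:**
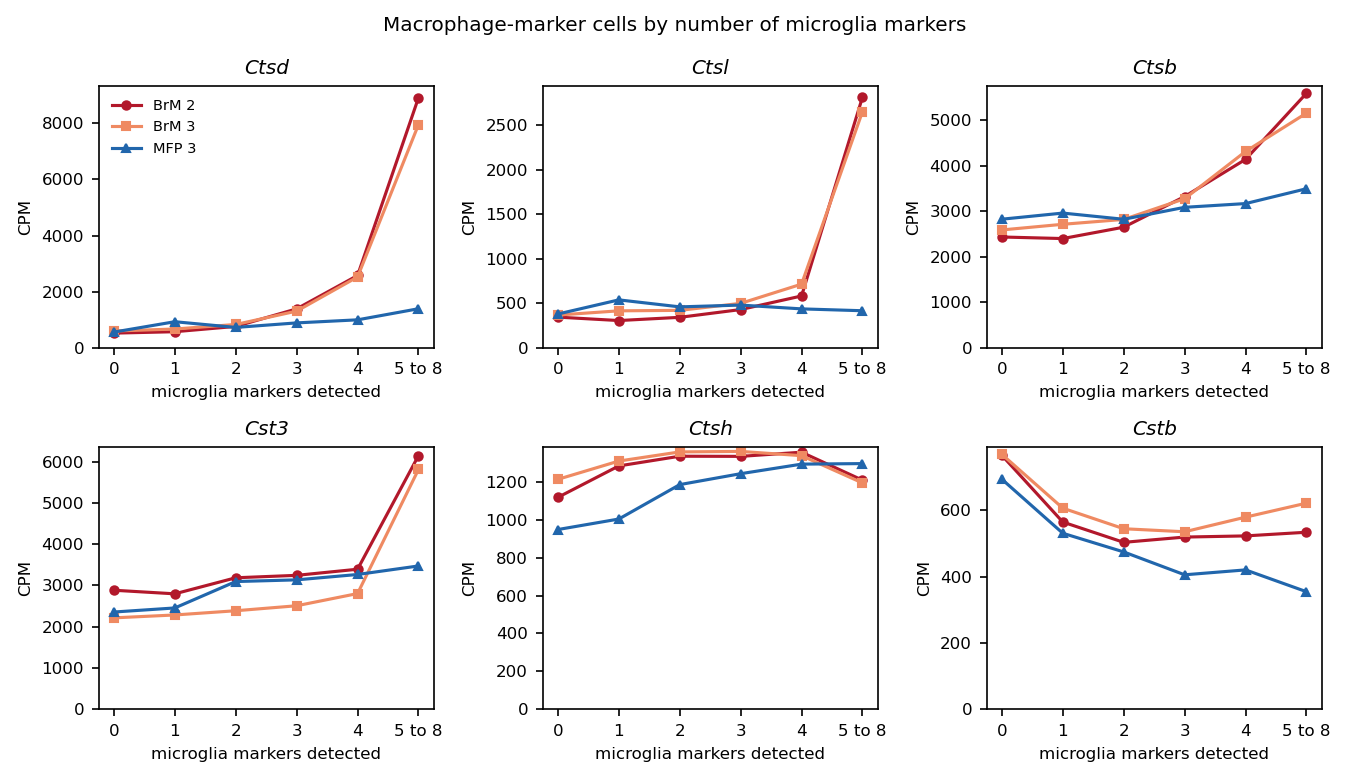
Level in CPM (vertical axes) of 6 genes in macrophage-marker cells divided by the number of microglia markers detected (horizontal axes), for BrM 2, BrM 3 and MFP 3. With 5 to 8 markers Ctsd is at 8917 and 7958 CPM in the BrM libraries and at 1387 CPM in MFP 3.

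In the comparison of sites, macrophage- and monocyte-gated cells were therefore allowed at most 2 microglia markers and neither Sparc nor Sall1. The comparison asked whether cells of the same class differ in these genes between a brain tumour and a fat pad tumour. It used edgeR's quasi-likelihood test on the summed UMIs, with Benjamini-Hochberg adjustment over all genes tested in a class and a threshold of 0.05. Log2 fold changes are BrM over MFP, with standard errors (SE). With 3 libraries against 3, an exact two-sided permutation test of a single level cannot go below p = 0.1.

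In monocyte-gated cells, 9 of the 10 genes passed the filter on low counts (all but Ctsw), and 1 of them, Ctsd, was called, higher in BrM. Calls in that direction made up 0.4% of the 7748 genes tested (31 genes), and calls lower in BrM 0.529%. Of the 9 genes, 6 had positive fold changes, with a median of 0.28 against -0.01 over all genes tested. Ctsd and Cstb were the 2 whose BrM libraries all lay above all MFP libraries, as in 6.39% of genes tested.

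Ctsd stood at 251, 332 and 355 CPM in the monocytes of BrM 1, 2 and 3, against 157, 149.6 and 215 CPM in those of MFP 1, 2 and 3, and the sites did not overlap. The log2 fold change was 0.87 (SE 0.18, adjusted p = 0.0414, edgeR), and the values rest on 235, 739 and 999 UMIs in the BrM sums, and on 106, 50 and 861 UMIs in MFP. Microglia markers in the same cells were higher in 2 of the 3 BrM libraries than in any MFP library: the 8 summed to 36.3, 59.8 and 58.6 CPM in BrM and 26.6, 5.98 and 39.2 CPM in MFP. The 9 macrophage markers summed to 868, 2244 and 2181 CPM in BrM and 1202, 849.6 and 1803 CPM in MFP, with overlap. The 7 markers of mature dendritic cells summed to 68.3, 42.7 and 46.9 CPM in BrM and 11.8, 12.0 and 19.5 CPM in MFP, without overlap. Lyz2, an abundant myeloid gene used in no gate, stood at 11045, 12447 and 13412 CPM in BrM and 21436, 22293 and 14943 CPM in MFP, lower in BrM without overlap. The part of these in the Ctsd difference was not tested. In monocytes with none of the 8 microglia markers Ctsd had 235, 251 and 249 CPM in BrM and 147, 156 and 213 CPM in MFP, still without overlap, at a log2 fold change of 0.54 that missed the threshold (SE 0.16, adjusted p = 0.129, edgeR). The call was also lost without BrM 2, BrM 3, MFP 1 or MFP 2 (adjusted p = 0.162, 0.158, 0.148 and 0.13, edgeR) and with doublets kept (adjusted p = 0.108, edgeR). The fold change was positive in 17 of 17 alternatives, from 0.54 to 1.08. It was 0.75 within the libraries of lower UMI total (BrM 1 against MFP 1 and MFP 2; adjusted p = 0.737, edgeR) and 0.77 within those of higher total (BrM 2 and BrM 3 against MFP 3; adjusted p = 0.0338, edgeR).

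Cstb had 718, 907 and 1095 CPM in BrM, against 499, 455 and 680.1 CPM in MFP monocytes, without overlap. Its log2 fold change of 0.78 (SE 0.18) missed the threshold (adjusted p = 0.0634, edgeR), which it passed in 7 of 17 alternatives. Ctss had 2847, 3606 and 3599.7 CPM in BrM, against 2414, 2112 and 3005 CPM in MFP monocytes, and the sites overlapped (log2 fold change 0.47, SE 0.15, adjusted p = 0.165, edgeR). Ctsh (0.29, SE 0.13), Ctsb (0.28, SE 0.16) and Ctsz (0.19, SE 0.13) had smaller positive log2 fold changes. Those of Cst3 (-0.01, SE 0.14), Ctsc (-0.05, SE 0.18) and Ctsl (-0.07, SE 0.24) were smaller than their errors. Cst3 averaged 2295 ± 290.2 CPM in BrM monocytes and 2409.7 ± 216 CPM in MFP monocytes (SD, n = 3 each).

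**Figure D4:**
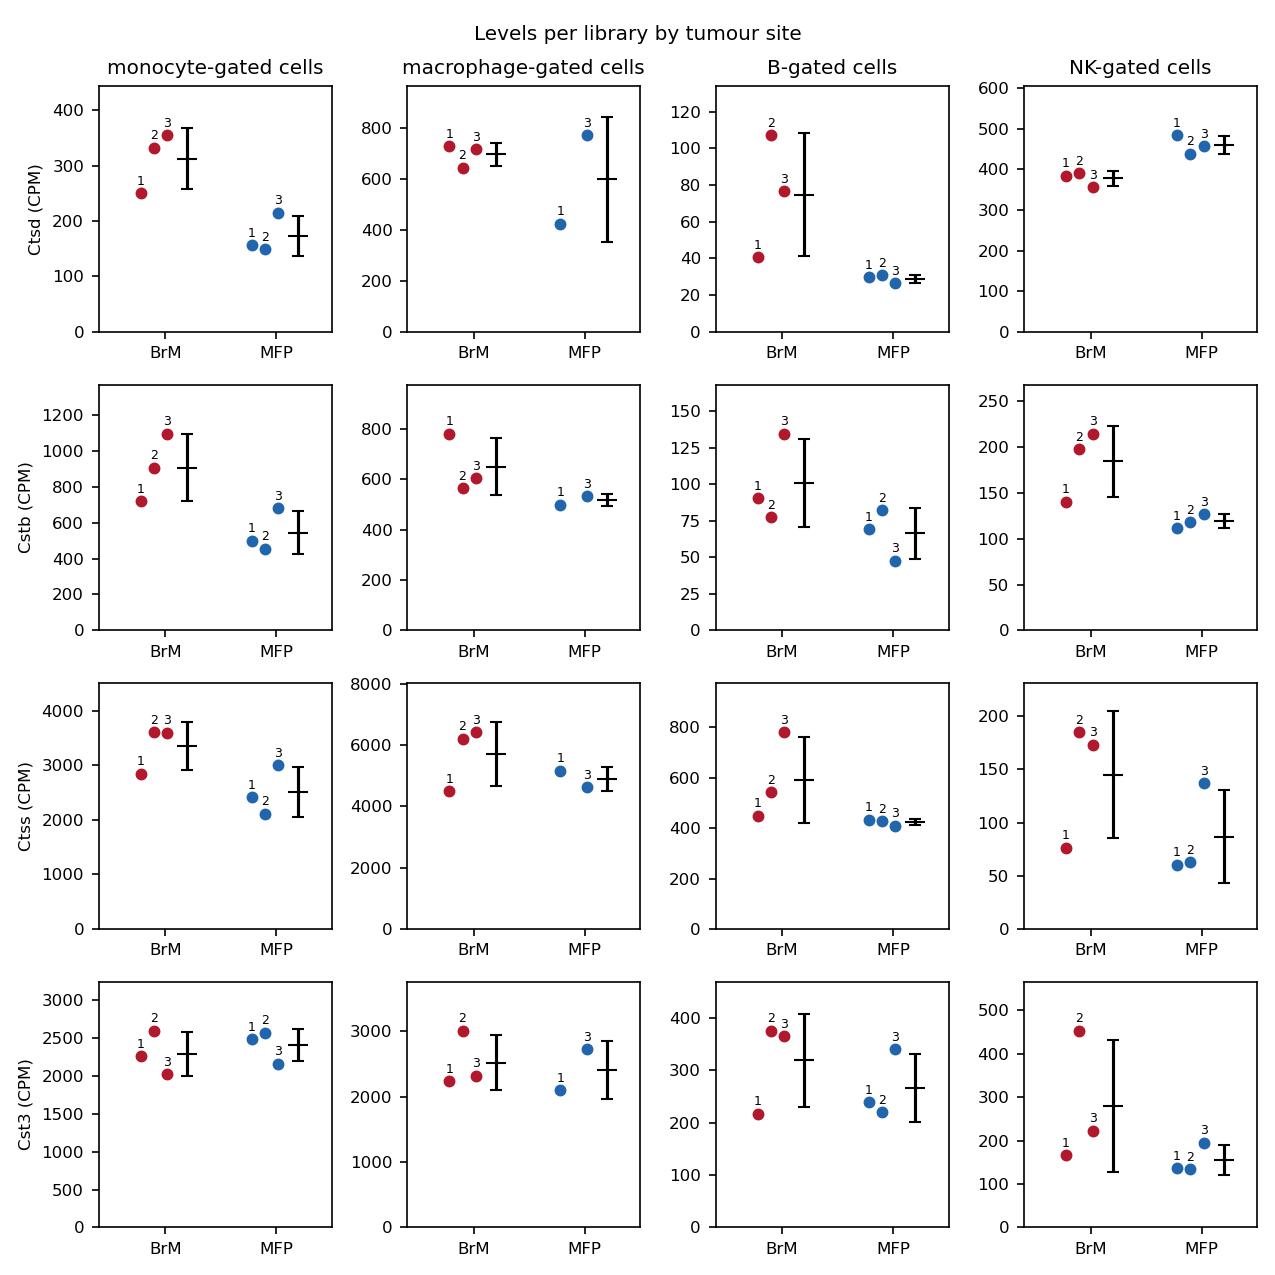
Levels (CPM, vertical axes) of Ctsd, Cstb, Ctss and Cst3 (rows) in monocyte-, macrophage-, B- and NK-gated cells (columns), BrM left of MFP; points are libraries with their replicate number, and black marks the mean and SD. Ctsd in monocytes is at 251, 332 and 355 CPM in BrM and 157, 149.6 and 215 CPM in MFP. In NK cells it is at 384, 391 and 357 CPM in BrM and 484, 438 and 456 CPM in MFP.

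In macrophage-gated cells all 10 genes passed the filter and 0 were called, where 6.14% of 11538 genes were called in all (1.67% higher and 4.46% lower in BrM). Here 3 BrM and 2 MFP libraries entered, since MFP 2 held 17 such cells. None of the 10 had an unadjusted p under 0.05, as 20% of genes tested had, and DESeq2 called 7 genes in all and 0 of the 10. The median log2 fold change of the 10 was 0.14 against -0.04 over all genes. Ctsd had 727, 644 and 717 CPM in BrM 1, 2 and 3, against 425 and 771 CPM in MFP 1 and MFP 3. MFP 3 lay above all 3 BrM libraries (log2 fold change 0.28, SE 0.23, adjusted p = 0.553, edgeR). A wider gate allowed up to 4 microglia markers and no longer excluded Sparc and Sall1. In that gate Ctsd had 1120.0, 1104 and 1022 CPM in BrM and 429 and 821 CPM in MFP. It then passed the threshold at a log2 fold change of 0.89 (adjusted p = 0.0474, edgeR), in a fit that called 538 of 12149 genes in all.

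Ctss had 4507, 6220.4 and 6427 CPM in BrM, against 5176 and 4622 CPM in MFP macrophages, with overlap (log2 fold change 0.33, SE 0.18, adjusted p = 0.339, edgeR). It passed the threshold without BrM 1 (log2 fold change 0.52, adjusted p = 0.0439, edgeR) and with 1 more marker required, where 2 BrM libraries are left (adjusted p = 0.0167, edgeR), in fits that called 811 of 11497 genes in all and 914 of 11339 genes in all. Cstb was the 1 gene of the 10 without overlap, as 28.4% of genes tested were (20.1% lower in BrM), at 782, 566 and 605 CPM in BrM, against 499 and 533 CPM in MFP (log2 fold change 0.40, SE 0.20, adjusted p = 0.286, edgeR), as 8.23% of genes were in this direction. Ctsh had a log2 fold change of 0.20 (SE 0.19). Those of Cst3 (0.16, SE 0.20), Ctsw (0.12, SE 0.41), Ctsb (0.11, SE 0.20), Ctsz (0.11, SE 0.17), Ctsc (0.05, SE 0.19) and Ctsl (-0.09, SE 0.27) were smaller than their errors, and the sites overlapped for each of these 7 genes.

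In NK-gated cells all 10 genes passed the filter and 0 were called, nor was any other of 10492 genes (0.0% called by edgeR). At an unadjusted p under 0.05 edgeR had 971 genes (9.25%), 5 of the 10 among them, and DESeq2 called 42 genes, Cstb among them. Fold changes were positive for 8 of the 10, with a median of 0.69 against -0.0023 over all genes. By Apoe and by the macrophage markers, myeloid RNA in the NK sums was highest in BrM 2, BrM 3 and MFP 3. Apoe, a macrophage gene used in no gate, had 17.5, 340.1 and 353 CPM in the NK cells of BrM 1, 2 and 3 and 9.22, 4.55 and 178 CPM in those of MFP 1, 2 and 3, and the 9 macrophage markers summed to 13.5, 206 and 245 CPM in BrM and 6.12, 6.65 and 187 CPM in MFP.

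Ctsh, Ctss and Ctsz were high in NK cells of the same 3 libraries. Ctsh had 5.23, 34.3 and 29.2 CPM in BrM, against 2.27, 2.82 and 29.3 CPM in MFP, and Ctss had 76.6, 185 and 173 CPM in BrM, against 60.6, 62.6 and 137 CPM in MFP. Ctsz had 38.0, 77.2 and 71.3 CPM in BrM, against 30.6, 31.2 and 57.3 CPM in MFP. The ratio of Ctsh to Apoe in NK cells, 0.101, 0.0828 and 0.165 in BrM 2, BrM 3 and MFP 3, stood beside 0.0776, 0.0934 and 0.11 over all cells of these libraries. For Ctss the ratio was 0.544, 0.491 and 0.772 in NK cells beside 0.357, 0.425 and 0.458 over all cells. For Ctsz it was 0.227, 0.202 and 0.323 beside 0.112, 0.134 and 0.189. Both lay above the ratio over all cells in each of the 3. In BrM 1, MFP 1 and MFP 2, where Apoe was low, NK cells still held 76.6, 60.6 and 62.6 CPM of Ctss. Of Ctsz they held 38.0, 30.6 and 31.2 CPM. No such level was taken off before the ratios were formed. Log2 fold changes were 1.48 for Ctsh (SE 1.05), 0.82 for Ctss (SE 0.39) and 0.71 for Ctsz (SE 0.31), each called in 1 of 15 alternatives. The part of free RNA in these differences was not tested.

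Ctsd went the other way in NK cells. It had 384, 391 and 357 CPM in BrM, against 484, 438 and 456 CPM in MFP, all BrM libraries below all MFP libraries as for 10.4% of genes tested (log2 fold change -0.24, SE 0.10, adjusted p = 0.533, edgeR). The fold change was negative in all 15 alternatives, from -0.28 to -0.20, and called in 1. Ctsl had 28.1, 37.5 and 45.7 CPM in BrM, against 22.2, 20.8 and 21.8 CPM in MFP (log2 fold change 0.77, SE 0.19, adjusted p = 0.48, edgeR). Cstb had 140.2, 198 and 214 CPM in BrM, against 112, 118 and 127 CPM in MFP (log2 fold change 0.67, SE 0.17, adjusted p = 0.48, edgeR). Neither overlapped between sites, as 6.95% of genes tested in this direction. Ctsl was called in 3 and Cstb in 5 of 15 alternatives. Cst3 had 166, 453 and 223 CPM in BrM, against 137, 134 and 195 CPM in MFP, with overlap (log2 fold change 0.91, SE 0.33, adjusted p = 0.532, edgeR), and was called in 4 of 15 alternatives. Its BrM mean depended on the gate, at 281 CPM (SD 152) here, 211 CPM (SD 39.6) with 1 more marker required and 387 CPM (SD 258) with doublets kept. The MFP mean stood at 155, 155 and 161 CPM. Ctsb (0.40, SE 0.27) and Ctsc (0.20, SE 0.11) had smaller log2 fold changes, overlapped between sites and were called in 0 of 15 alternatives. Ctsw, highest in NK cells among the classes, had overlapping sites (log2 fold change -0.07, SE 0.12, adjusted p = 0.866, edgeR).

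In B-gated cells, 51 to 415 cells per library, 9 of the 10 genes passed the filter (all but Ctsw) and 0 were called, nor was any other of 5072 genes (0.0% called by edgeR). At an unadjusted p under 0.05 edgeR had 387 genes (7.63%), 3 of the 9 among them, and DESeq2 called 0. All 9 fold changes were positive, with a median of 0.49 against 0.0033 over all genes. Ctsd had 40.5, 107 and 76.5 CPM in BrM, against 29.8, 30.7 and 26.6 CPM in MFP, without overlap (log2 fold change 1.11, SE 0.37, adjusted p = 0.611, edgeR). These values rest on 60, 18 and 25 UMIs in the BrM sums, and on 22, 25 and 5 UMIs in MFP. Ctsl had 29.7, 41.7 and 42.9 CPM in BrM, against 21.7, 17.2 and 5.31 CPM in MFP (log2 fold change 1.02, SE 0.39, adjusted p = 0.615, edgeR), and Ctss had 449.9, 542 and 781 CPM in BrM, against 434, 427 and 409 CPM in MFP (log2 fold change 0.49, SE 0.21, adjusted p = 0.645, edgeR). Both were without overlap too, as 7.67% of genes tested in this direction (0 of the 9 were in the other, as 8.4% of genes tested). The other log2 fold changes were 0.52 for Cstb (SE 0.27), 0.49 for Ctsz (SE 0.27), 0.43 for Ctsb (SE 0.51), 0.28 for Cst3 (SE 0.25), 0.19 for Ctsc (SE 0.24) and 0.05 for Ctsh (SE 0.22), with overlap between sites in each. Lyz2 stood in the B cell sums at 10.8, 143 and 395 CPM in BrM and 4.07, 4.92 and 138 CPM in MFP. The 9 monocyte markers summed there to 706, 1143 and 2761 CPM in BrM and 597, 601 and 893 CPM in MFP. The part of this RNA in the B cell values was not tested. Without BrM 1, edgeR called Ctsd, Ctss and Ctsz in B cells (adjusted p = 0.00365, 0.0224 and 0.0294), in a fit that called 398 of 4130 genes in all.

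**Figure D5:**
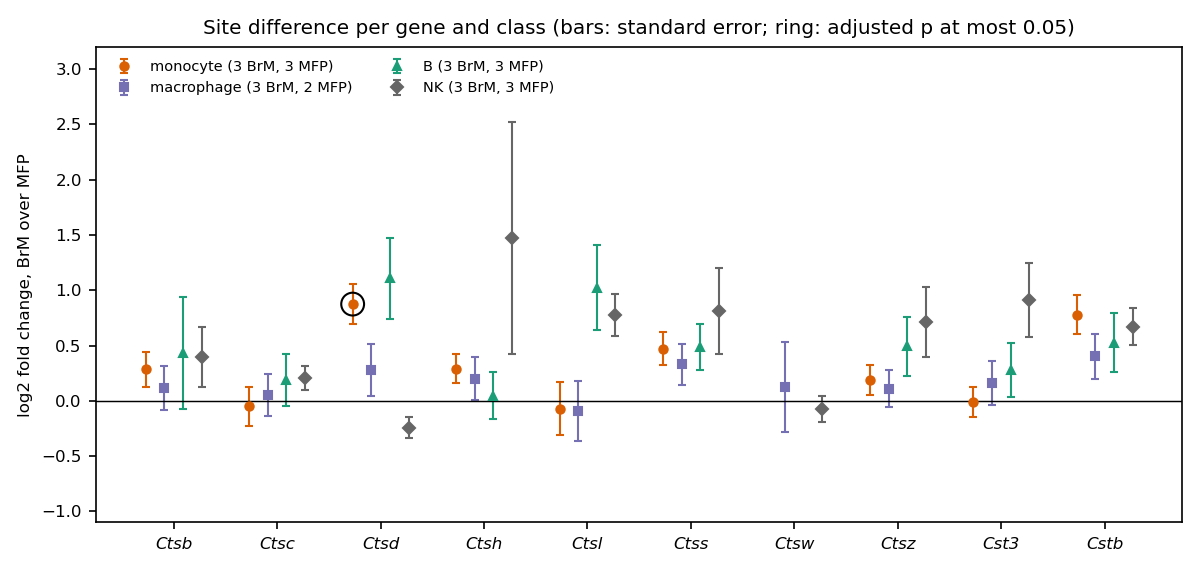
Log2 fold change, BrM over MFP (vertical axis), of each gene in monocyte-, macrophage-, B- and NK-gated cells; bars are standard errors and the ring marks an adjusted p of at most 0.05. The ring is on Ctsd in monocytes (0.87); the same gene is at 0.28 in macrophages, 1.11 in B cells and -0.24 in NK cells.

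Dendritic cells were compared by value only, because MFP 3 was the 1 fat pad library with 20 such cells (148, against 19 in MFP 1 and 5 in MFP 2). Ctsd had 15.3, 44.5 and 35.6 CPM in BrM and 104 CPM in MFP 3 (95% exact Poisson interval 92.1 to 118 CPM, counting error only). Macrophage markers in the same sums stood at 28.9, 135 and 145 CPM in BrM and 316 CPM in MFP 3. Microglia markers stood at 17.0, 15.7 and 16.3 CPM in BrM and 131 CPM in MFP 3; their part in the difference was not tested. Cst3 stood at 9345, 18002 and 14187 CPM in BrM and 9882 CPM in MFP 3, within the BrM range. Ctsb had 213, 236 and 226 CPM in BrM and 288 CPM in MFP 3, which lay above the 3 BrM libraries, as it did for Ctsc, Ctss and Ctsz. Ctsc had 225, 307 and 308 CPM in BrM and 367 CPM in MFP 3. Ctss had 1133, 867 and 823 CPM in BrM and 1209 CPM in MFP 3. Ctsz had 539, 562 and 592 CPM in BrM and 664 CPM in MFP 3. For Ctsh (490.0, 568 and 656 CPM in BrM, 634 CPM in MFP 3), Ctsl (18.7, 31.7 and 34.0 CPM in BrM, 29.8 CPM in MFP 3) and Cstb (105, 188 and 227 CPM in BrM, 226 CPM in MFP 3), MFP 3 lay within the BrM range. Ctsw was low, at 3.40, 4.33 and 4.97 CPM in BrM and 2.82 CPM in MFP 3. MFP 3 thus lay above all BrM libraries for 5 of the 10 genes and below them for 1. The share of all genes outside the BrM range was not counted, so these orders are not read as a site difference. In cDC2 cells Ctsd had 21.5, 66.0 and 63.5 CPM in BrM and 163 CPM in MFP 3. In cDC1 cells it had 29.7 and 23.3 CPM in BrM 2 and BrM 3 and 12.0 CPM in MFP 3. The subsets were mixed differently: cDC1 cells were 170 of 419 and 114 of 376 dendritic cells in BrM 2 and BrM 3 and 33 of 148 in MFP 3.

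Calls among other lysosomal genes are to be read against 0.929% of all genes called in monocytes and 6.14% in macrophages. Of 12 other cathepsins and lysosomal peptidases, 7 were tested in monocytes and 10 in macrophages, with 0 called and median log2 fold changes of 0.02 and -0.05. Of 27 lysosomal glycosidases, lipases and activators, 26 were tested in monocytes and 1 was called, Acp5, the tartrate-resistant acid phosphatase, at 61.9, 107 and 105 CPM in BrM, against 32.5, 15 and 42.7 CPM in MFP (log2 fold change 1.45, SE 0.26, adjusted p = 0.0269, edgeR). In macrophages 27 were tested and 1 was called, Smpd1, the acid sphingomyelinase, lower in BrM (log2 fold change -1.09, SE 0.30, adjusted p = 0.0386, edgeR). Smpd1 was low throughout, at 4.95, 3.51 and 3.04 CPM in BrM, against 7.45 and 7.73 CPM in MFP. Lysosomal membrane proteins had 0 calls, with 11 of 14 tested in monocytes and 13 in macrophages. Of 17 genes of the proton pump that acidifies the lysosome, 16 were tested in monocytes with 0 called and 16 in macrophages with 1 called, Atp6v0a1, lower in BrM (log2 fold change -0.99, SE 0.20, adjusted p = 0.0068, edgeR). Atp6v0a1 had 4.95, 19.4 and 14.5 CPM in BrM, against 29.8 and 37.0 CPM in MFP. The macrophage sums of BrM 1 and MFP 1 came from 25 and 36 cells, so levels this low rest on few UMIs there. Of 10 sorting receptors and lysosomal transcription factors, 9 were tested in monocytes with 0 called and 10 in macrophages with 1 called, Tfeb, an activator of lysosomal genes. Tfeb had 24.7, 8.77 and 7.64 CPM in BrM, against 18.6 and 17.6 CPM in MFP (log2 fold change -0.92, SE 0.24, adjusted p = 0.0322, edgeR), BrM 1 lying above both MFP libraries.

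Class II antigen processing, which Ctss and Ctsl serve, had 2 of 10 genes called higher in BrM monocytes, with a median log2 fold change of 0.64 against -0.01 over all genes, of which 0.4% were called higher. In macrophages 1 of 10 was called higher, where 1.67% of all genes were, and the median was 0.02. In NK cells, where edgeR called no gene, the median was 0.75 over the 8 genes tested. In B cells, again without a call, it was 0.03 over 10 genes. A positive median of this list was thus not particular to monocytes. Macrophage markers in the NK sums were highest in BrM 2, BrM 3 and MFP 3, as given above. The part of that RNA in the NK median was not tested. Markers of mature dendritic cells, another antigen-presenting class, were higher in BrM without overlap in the monocyte sums, as given above for Ctsd. The macrophage sums held 49.5, 23.9 and 35.6 CPM of these markers in BrM and 0 and 15.1 CPM in MFP. There too the sites did not overlap, and the 0 of MFP 1 comes from 36 cells. Markers of cDC2 cells overlapped in the monocyte sums, at 541, 314 and 348 CPM in BrM and 344, 512 and 303 CPM in MFP. Those of cDC1 cells overlapped there as well. The part of dendritic cell RNA in the calls of this list was not tested. Ifi30, the thiol reductase of the endocytic pathway, had 1788, 1877 and 1909.8 CPM in BrM, against 1137, 1280.4 and 1306 CPM in MFP (log2 fold change 0.64, SE 0.12, adjusted p = 0.0269, edgeR). H2-Oa, a subunit of the peptide-loading modulator DO, had 21.3, 40.0 and 18.5 CPM in BrM, against 8.86, 8.97 and 7.75 CPM in MFP (log2 fold change 1.80, SE 0.38, adjusted p = 0.0438, edgeR), and was also called in macrophages (log2 fold change 0.86, SE 0.25, adjusted p = 0.0454, edgeR). Of 9 granule genes linked to cathepsin C, 6 were tested in macrophages and 2 were called higher in BrM, Serpinb9 and Cst7. Serpinb9, an inhibitor of granzyme B, had 9.89, 19.6 and 29.4 CPM in BrM, against 7.45 and 9.88 CPM in MFP (log2 fold change 1.42, SE 0.24, adjusted p = 0.00191, edgeR). Its level in BrM 1 was thus close to that in MFP 3. Cst7 had a log2 fold change of 1.20 (SE 0.32, adjusted p = 0.0332, edgeR). In BrM 1 and MFP 1 the macrophage levels of Serpinb9, Cst7 and H2-Oa rest on few UMIs, from 25 and 36 cells. Cst7, cystatin F, an inhibitor of cathepsin C, was also the 1 gene tested in macrophages of 13 other cystatins and stefins. It had 9.89, 10.3 and 21.4 CPM in BrM, against 11.2 and 7.30 CPM in MFP, and the sites overlapped for Cst7 and for H2-Oa in macrophages. In NK cells all 9 granule genes were tested and 0 called, with a median of 0.09, and none of these lists had a call in NK or B cells.

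Over 48 sums of a class in a library, the genes whose log2(CPM + 1) ran most alike are named as a description of points that share libraries and class. Ctss ran with Ctsz, Lgmn and Lacc1 (r = 0.93 to 0.97), where Lgmn encodes the lysosomal protease legumain, and Ctsz with Ctss, Lacc1 and Lgmn (r = 0.95 to 0.97). Ctsb ran with Tmem86a, Cd68 and Mitf (r = 0.92 each), Ctsl with Tlr7, Ctsb and Tmem86a (r = 0.86 to 0.87) and Ctsh with Ly86, Pld4 and Unc93b1 (r = 0.94 to 0.97). The nearest to Ctsd were Timp2, Rnf128 and Ptgs1 (r = 0.81 to 0.88), and to Ctsc Sash1, Laptm4a and Slc7a7 (r = 0.89 to 0.92). Ctsw ran with Sytl3, Sh2d1a and Nkg7 (r = 0.92 to 0.93), Cst3 with Tspan33, Batf3 and Shtn1 (r = 0.91 to 0.92) and Cstb with Rab20, Csf3r and Zfand2a (r = 0.90 to 0.92). Among the 10 themselves, Ctsh and Ctsw ran most against each other (r = -0.80).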

How the data were processed

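Leukocytes of 3 BrM and 3 MFP libraries were measured by droplet RNA sequencing. The authors deposited a matrix of raw UMI counts for each library, made with Cell Ranger 4.0 on mm10 per the submitters' processing notes; other settings are not given there. From 49518 barcodes, 2627 with under 500 UMIs, under 200 genes or over 10% mitochondrial UMIs were removed, then 3283 with the top 7% of Scrublet scores in each library (scanpy 1.11.5). Total UMIs per library were 50692794 to 70944735, which sets the counting error; Poisson intervals cover that error only.

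Classes were gated by detected markers (T 3, NK 5, B 3, neutrophil 4, mature DC 4, plasmacytoid DC 4, cDC1 4, microglia 5 with Sparc or Sall1, cDC2 3, macrophage 5, monocyte 5). Of gated cells, 3.64% (B) to 57.5% (cDC2) lay exactly at the threshold. These thresholds and the exclusion of microglia markers from macrophages and monocytes were set after the levels of the 10 genes had been seen: 2 gate versions were tried, and the alternatives with up to 4 and with no microglia markers, added later, show what the exclusion changes. The alternative with up to 4 also allowed Sparc and Sall1, and these changes were not tested apart. The genes and lists were also chosen with earlier results of these data known.

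Summed counts were tested with edgeR 4.0.16 (TMM, filterByExpr, glmQLFTest; R 4.3.3), all libraries of both sites in a class, without covariates; SE is the log2 fold change divided by the square root of F. The method was tested on data simulated from the NK and macrophage sums only, with the same spread for every gene. Monocytes and B cells were not simulated. DESeq2 1.42.0, no filter, the replicate number as a block, a depth term, depth strata, doublets kept, other gates and each library left out were alternatives. The planned dendritic test could not be made with 1 MFP library. All 10 genes are named in every class compared between sites, at most 4 called genes of each other list, and the 3 genes most alike each. In the lists, 3 symbols had no row. Promoters came from RefSeq.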

Additional observations from a re-analysis of the deposited data

Results flagged for a closer look

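The site difference of Ctsd went in opposite directions between classes, which was tested with library as a term in edgeR. The log2 fold change (BrM over MFP) was higher in monocytes than in NK cells by 1.15 (SE 0.2, unadjusted p = 7e-05, adjusted p = 0.0858 over 9800 genes), with BrM above MFP in monocytes and below it in NK cells in every library. In B cells it was higher than in NK cells by 1.3 (SE 0.33, unadjusted p = 0.00081, adjusted p = 0.976 over 9016 genes). Neither difference passed the threshold after adjustment. Ctsd was picked here because its sites lay apart in opposite directions in these same sums. The unadjusted p-values (edgeR) are therefore not independent of that choice. Both differences share the NK cell sums. The 9 macrophage markers summed to 13.5, 206 and 245 CPM in BrM 1, 2 and 3 and 6.12, 6.65 and 187 CPM in MFP 1, 2 and 3 in the NK sums, and to 15.5, 345 and 211 CPM in BrM and 10.9, 1.23 and 303 CPM in MFP in the B sums, low at both sites in the libraries with few macrophages; the part of this RNA in the differences was not tested.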

How the results depend on the processing

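Of the fold changes of single genes recomputed under alternatives, 131 of 150 in NK cells, 122 of 134 in B cells, 122 of 153 in monocytes and 121 of 140 in macrophages kept their sign and their side of the threshold. Counts of calls moved more. In NK cells (0 of all genes and 0 of the 10 called) the genes called were 42 with DESeq2, 50 with no low-count filter, 10 with a term for library depth, 624 within libraries of lower and 250 within those of higher UMI total, and 0 to 512 with a library left out, the most without BrM 1; of the 10 they were 1, 2, 0, 6, 3 and 0 to 4. In B cells (0 and 0) the genes called were 89 with no filter, 10 with the replicate block, 4 with the depth term, 51 and 99 within lower and higher totals, 1 with 1 marker fewer and 0 to 398 with a library left out; of the 10 they were 0 to 3 with a library left out, the most without BrM 1. In monocytes (72 and 1) the genes called were 119 with DESeq2, 419 with no filter, 155 with the block, 221 with the depth term, 0 and 215 within lower and higher totals, 47 with doublets kept and 5 to 148 with a library left out (148, 5 and 9 without BrM 1, 2 and 3, 11, 23 and 123 without MFP 1, 2 and 3). Of the 10 they were 2, 3, 2, 2, 0, 1, 0 and 0 to 2, then 2 with 1 more marker required and 0 with no microglia marker allowed. In macrophages (708 and 0) the genes called were 7 with DESeq2, 1390 with no filter, 196 with the block, 320 within higher totals, 436 with 1 marker fewer and 7 to 1381 with a library left out (83 without BrM 2, 105 without BrM 3, 1381 without MFP 1, 7 without MFP 3); of the 10 they were 0 to 1 with a library left out, 1 with 1 more marker and 1 with up to 4 microglia markers. The cause of these shifts was not tested. Same-numbered libraries did not all deviate together (r = 0.445, -0.285 and 0.235 in NK cells), and not every library correlated best with its own number, so the replicate block rests on the numbers alone; with it the monocyte Ctsd log2 fold change was 0.89 (adjusted p = 0.0182, edgeR).

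Fold changes that changed sign were never past the threshold on either side. Within lower UMI totals they were Ctsb in NK cells (-0.11), Ctsc (-0.16), Ctsh (-0.20) and Cst3 (-0.0982) in B cells and Ctsb in monocytes (-0.0573). Within higher totals they were Ctsw in NK cells (0.0827), Ctsb in B cells (-0.27), Cst3 in monocytes (0.19) and Ctsd in macrophages (-0.0116). With the depth term they were Ctsw in NK cells (0.0115), Ctsb in B cells (-0.0107) and Cst3 in monocytes (0.0353). With the block they were Ctsc (-0.0156) and Cst3 (-0.0146) in macrophages. In monocytes Cst3 also turned with no filter (0.0358), doublets kept (0.0006) and no microglia marker (0.0200), and Ctsc (0.0527) and Ctsl (0.0619) with 1 more marker. In macrophages Ctsl turned with 1 more marker (0.0147) and with up to 4 microglia markers (0.19), and Ctsw with DESeq2 (-0.52). With a library left out the ranges crossed 0 for Ctsb (-0.0507 to 1.11), Ctsc (-0.0539 to 0.45) and Ctsh (-0.19 to 0.17) in B cells, for Ctsc (-0.18 to 0.15), Ctsl (-0.21 to 0.36) and Cst3 (-0.12 to 0.0787) in monocytes, and for Ctsb (-0.0832 to 0.42), Ctsc (-0.0415 to 0.20), Ctsd (-0.0155 to 0.81), Ctsl (-0.35 to 0.48), Ctsw (-1.79 to 0.33) and Cst3 (-0.0216 to 0.38) in macrophages. Dendritic cells could be tested only with doublets kept, 1 marker fewer or plasmacytoid cells added, where 12, 0 and 1 genes were called by edgeR (1193, 1104 and 1006 at an unadjusted p under 0.05) and 0 of the 10; no other dendritic fit, no macrophage fit within lower totals and none without microglia markers could be made. Depth limits B cells most of the 4 classes tested, where Ctsd rests on 5 to 60 UMIs per library.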
